A study of Mus musculus with 12 samples.

Results

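To describe which RNAs set 2 organs of the same animals apart, the liver of control mice was compared with their brain in 6 of the 12 total RNA libraries of the series. The 6 libraries were taken by their labels: genotype WT, tissue liver or brain, and mouse B, D or E, so that each mouse gave 1 liver and 1 brain library. The other 6 libraries came from 3 KO mice. All mice belonged to a Mettl5 line. METTL5 is the methyltransferase that places N6-methyladenosine on 18S rRNA. The line carried a floxed exon 2 of Mettl5, was made in stem cells from a cross of C57bl/6 with 129S6 and was then backcrossed to B6, and the deletion came from a CMV-cre transgene that acts in the whole body. The labels call mice B, D and E WT, whereas the study's text also names heterozygous Mettl5+/- mice as controls for RNA sequencing, so WT here means the libraries labelled WT. The mice received no treatment, and the labels give no age, sex, litter or library batch. The study states that mice of both sexes were used.

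The hepatocyte, the main cell of the liver, makes most plasma proteins, packs lipids into lipoproteins, holds the urea cycle and gluconeogenesis, and clears drugs and bile acids with cytochromes P450, conjugating enzymes and transporters. Kupffer cells, sinusoidal endothelium, stellate cells and bile duct cells make up most of the remainder. The brain holds neurons, which signal through synapses, ion channels and neuropeptides, together with astrocytes, myelin-forming oligodendrocytes, microglia and the endothelium of the blood-brain barrier.

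Raw counts were deposited for 55487 genes, of which 32005 had at least 1 count in the 6 libraries. Library totals ran from 15078611 to 21623180 counts. Levels are given as CPM, the usual depth-normalised read count, with library sizes scaled by the trimmed mean of M values (TMM), and as RPKM, the same value per kilobase of exon, where different genes are compared. The liver was set against the brain within each mouse with edgeR's quasi-likelihood test, and a gene was called at an adjusted p under 0.05. A log2 fold change is liver minus brain throughout. Of 17694 genes tested, 12838 were called, or 72.6%, with 5716 (32.3%) higher in liver and 7122 (40.3%) higher in brain. Of these, 1883 genes (10.6% of those tested) were at least 8-fold higher in liver and 3872 (21.9%) at least 8-fold higher in brain. All 3 libraries of a tissue lay above all 3 of the other in 1881 and 3871 of them, where 78.28% of all genes tested did not overlap. Counts of listed genes called, given below, are to be read beside the 32.3% and 40.3% of all genes tested. The lists were chosen with earlier results of these data known, so their counts carry no test. The median log2 fold change over all genes was -0.17. When library totals alone set the scale, the median was -1.01, 3410 genes were higher in liver and 10184 higher in brain, and the liver share of the calls dropped from 44.52% to 25.08%. The median moved by -0.84 between these scalings, so the direction of smaller changes depends on the scaling. Of the 8-fold genes, 77.59% of the liver genes and 100% of the brain genes were also 8-fold under library totals. Mouse E stood apart from mice B and D in genes of the sex chromosomes in both organs and in a group of liver genes described near the end. Without mouse E 12518 genes were called, 1941 of them 8-fold higher in liver and 4073 in brain. In bulk tissue, fewer cells of a type and less RNA per cell cannot be told apart.

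**Figure D1:**
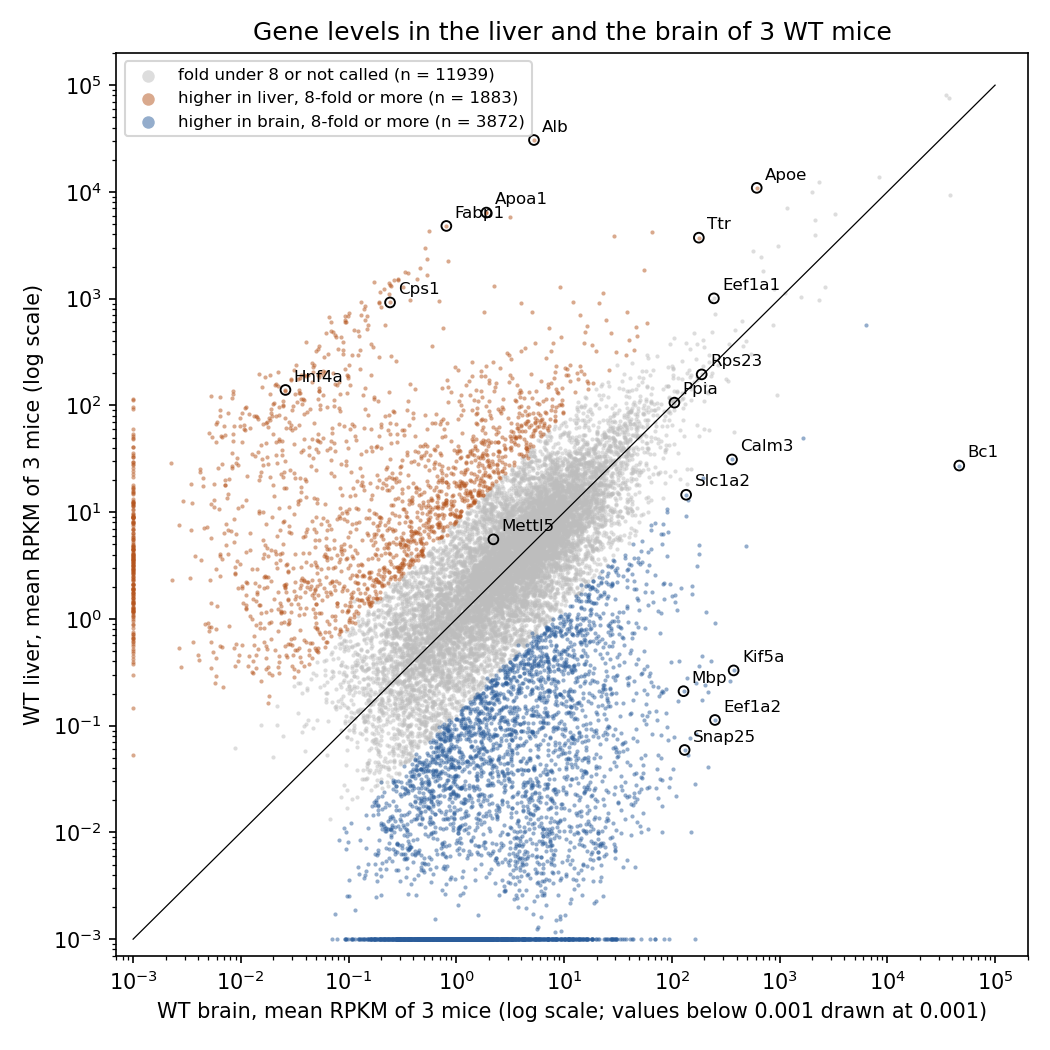
Mean RPKM of each tested gene in WT liver (vertical axis) against WT brain (horizontal axis), both on log scales with values under 0.001 drawn at 0.001, coloured where a gene was called and 8-fold or more apart. Alb lay at 30610 RPKM in liver and 5.25 RPKM in brain, Bc1 at 27.3 and 46530 RPKM, and Rps23 and Ppia on the diagonal.

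The 4 marker genes of the tissues matched their labels in every library. Alb, which encodes serum albumin (chr5:90460897-90476602, plus strand, mm10), was at 79340, 74090 and 61650 CPM in the livers of mice B, D and E and at 8.24, 19.6 and 9.102 CPM in their brains (log2 fold change 12.61 ± 0.38 (SE), adjusted p = 1.4e-08). Apoa1, the main protein of high-density lipoprotein, was at 9024, 9550 and 5159 CPM in liver and 2.04, 3.51 and 1.503 CPM in brain (log2 fold change 11.74 ± 0.31 (SE), adjusted p = 2.3e-09). In both genes every liver value lay far above every brain value, and mouse D had the highest value in brain. Snap25, a membrane fusion protein of the synapse, was at 0.335, 0.578 and 0.293 CPM in liver and 908, 805 and 966 CPM in brain (log2 fold change -11.12 ± 0.42 (SE), adjusted p = 1.6e-09). Mbp, the myelin basic protein, was at 1.41, 1.16 and 2.78 CPM in liver and 1060, 1269 and 932 CPM in brain (log2 fold change -9.26 ± 0.34 (SE), adjusted p = 6.3e-09). The tissues did not overlap for any of the 4 genes. The counts of Alb in brain were low but not at 0: relative to the liver of the same mouse, Alb stood at 103.9, 264.0 and 147.6 ppm in the brains of mice B, D and E. Alb was not alone in this. Over 183 genes high in liver, the brain level had a median of 1047, 1010 and 2718 ppm of the liver level in mice B, D and E. The lower quartiles were 156.8, 285.6 and 184.8 ppm. The source of such counts, and whether they share one, was not tested.

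The promoters of 4 genes that stood far apart are shown because they give the sequence just before the start of genes at the extremes of the comparison. They hold the 250 bases before the RefSeq start (GRCm38.p6), read on the strand of the gene from 5' to 3', with matches to GTTAAT and TATAAA in capitals. GTTAAT is a motif known from promoters of liver genes, and TATAAA is the core of the TATA box. Both were searched on both strands, and of 32851 promoters of this length 6.43% held the former and 12.4% the latter. Alb (promoter at chr5:90460620-90460869, plus strand), Fabp1, the liver fatty acid binding protein (chr6:71199629-71199878, plus strand), and Apoa2, of high-density lipoprotein (chr1:171224804-171225053, plus strand), were high in liver, and Eef1a2, an elongation factor of neurons and muscle (chr2:181157016-181157265, minus strand), was high in brain.
Alb: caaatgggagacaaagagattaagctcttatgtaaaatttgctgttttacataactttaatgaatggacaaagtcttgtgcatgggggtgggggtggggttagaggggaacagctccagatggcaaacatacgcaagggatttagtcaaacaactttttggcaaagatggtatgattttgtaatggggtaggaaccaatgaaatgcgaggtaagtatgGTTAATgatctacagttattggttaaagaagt
Fabp1: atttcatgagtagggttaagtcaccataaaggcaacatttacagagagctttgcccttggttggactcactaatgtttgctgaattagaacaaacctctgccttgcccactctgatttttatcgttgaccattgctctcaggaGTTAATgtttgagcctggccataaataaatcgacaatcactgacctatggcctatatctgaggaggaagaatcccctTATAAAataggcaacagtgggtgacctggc
Apoa2: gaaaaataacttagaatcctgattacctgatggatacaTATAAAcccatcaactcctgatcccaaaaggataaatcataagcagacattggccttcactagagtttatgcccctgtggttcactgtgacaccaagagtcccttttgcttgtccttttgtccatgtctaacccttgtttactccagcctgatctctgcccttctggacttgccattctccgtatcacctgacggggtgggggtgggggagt
Eef1a2: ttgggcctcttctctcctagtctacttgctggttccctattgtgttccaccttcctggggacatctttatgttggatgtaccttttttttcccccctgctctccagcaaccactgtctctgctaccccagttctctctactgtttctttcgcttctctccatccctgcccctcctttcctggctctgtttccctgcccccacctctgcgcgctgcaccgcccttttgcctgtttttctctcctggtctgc
Alb held GTTAAT 32 bases before the start, Fabp1 held both motifs, 107 and 30 bases before the start, Apoa2 held no GTTAAT and had TATAAA 212 bases before the start, and Eef1a2 held neither motif. These are matches of letters in a window, not measured binding. Distances count from the RefSeq start, which lay 27, 52, 0 and 1 bases from the annotated start of Alb, Fabp1, Apoa2 and Eef1a2. The promoter table covered 11359 of 14529 protein-coding genes tested (78.2%), which is too few to compare motifs or CG pairs between gene sets, so that check is void.

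Secreted proteins led the liver. The 10 genes with the highest RPKM among 8-fold liver genes were Alb, Apoe, Apoa2, Apoa1, Apoc1, Fabp1, Mup3, Trf, Scd1 and Ttr, and 8 of these 10 encode proteins released into the blood or, for the urinary protein Mup3, carried by it into urine. All 20 listed plasma proteins were tested and all 20 were higher in liver by 8-fold or more, with a median log2 fold change of 12.33 beside -0.17 over all genes. Together they took 9.88, 10.6 and 8.92% of the liver counts in mice B, D and E and 0.0492, 0.0854 and 0.0477% of the brain counts, and Alb alone took 5.33 ± 0.321% (SD, n = 3) of liver counts. Fetub, a plasma protease inhibitor, had one of the 5 smallest p-values, at 286, 493 and 245 CPM in liver and 0.0522, 0.0807 and 0.0406 CPM in brain (log2 fold change 12.37 ± 0.62 (SE), adjusted p = 1.6e-09), which are 4 counts over the 3 brains. Fgb, Fga and Fgg, the chains of fibrinogen, were at 4959, 4044 and 3614 CPM in liver and at 1.41 CPM or less in every brain. Hp and Hpx, which bind free haemoglobin and haem, were higher in liver by 12.40 ± 0.45 and 11.79 ± 0.32 (log2, SE). The highest brain levels of the list were those of Trf, transferrin, at 170.2, 296 and 179 CPM, and Ttr, the thyroxine carrier transthyretin, at 198, 277 and 159 CPM. Trf is also made by oligodendrocytes and Ttr by the choroid plexus.

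Apolipoproteins showed a wide range of contrasts. Of 20 genes of lipoprotein assembly and uptake, 19 were higher in liver and 1, Apod, in brain, with a median log2 fold change of 5.45 when genes with no count in brain stood at their bound. Apob, the core protein of very-low-density lipoprotein, was at 14330, 11790 and 9666 CPM in liver and 1.67, 2.98 and 1.26 CPM in brain (log2 fold change 12.60 ± 0.35 (SE), adjusted p = 3.5e-09). Apoe, the apolipoprotein shared with astrocytes, was second by RPKM among the 8-fold liver genes, at 26700, 23390 and 19870 CPM and still reached 1079, 1597 and 1261 CPM in brain (log2 fold change 4.16 ± 0.31 (SE), adjusted p = 1.5e-06). The brain thus held a level of Apoe that was lower by 17.9-fold, against 3411-fold for Apoa1. Apod, a lipocalin found in glia, was at 0.0669, 0 and 0.0731 CPM in liver and 102, 129 and 102 CPM in brain, which with 2 liver counts gave a ratio of 2280 with a counting interval of 631 to 18820. Clu and Pltp, which are made in both organs, were higher in liver by only 1.98 ± 0.25 and 2.07 ± 0.35.

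All 22 tested genes of coagulation and complement were higher in liver. C3, the central complement protein, was at 10590, 12000 and 12260 CPM in liver and 3.86, 6.74 and 2.397 CPM in brain (log2 fold change 11.48 ± 0.35 (SE), adjusted p = 7.8e-09). F2, prothrombin, had 1557 ± 81.2 CPM in liver and 0.366 ± 0.228 CPM in brain (SD, n = 3), and F11, coagulation factor XI, had no count in any brain and was at least 1677-fold higher in liver. The smallest contrasts were those of the complement subunits made by macrophages and microglia, C1qa, C1qb and C1qc, with log2 fold changes of 1.76 ± 0.18, 0.96 ± 0.19 and 1.61 ± 0.18. C1qb was not called under library totals (0.11, adjusted p = 0.62).

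Enzymes of metabolism and clearance were another large block of liver genes. Of 24 cytochromes P450 and their reductase, 23 were higher in liver, as were all 22 enzymes and transporters of conjugation and bile, all 20 of the urea cycle and amino acid breakdown, and all 20 of gluconeogenesis, glycogen and lipid metabolism. Of the 22 for conjugation and bile, 20 were called without mouse D. Without mouse B, without the filter and under library totals, 21 were. Cyp2e1, which oxidises ethanol, was at 2366, 3678 and 2201 CPM in liver and 0.678, 0.968 and 0.406 CPM in brain (log2 fold change 11.98 ± 0.33 (SE), adjusted p = 1.6e-09). Cyp7a1, the first enzyme of bile acid synthesis, was at 83.5, 36.3 and 196 CPM in liver and had 1 count over the 3 brains. The exception was Cyp46a1, the cholesterol 24-hydroxylase of neurons, at 4.29, 2.64 and 2.71 CPM in liver and 28.6, 33.3 and 51.5 CPM in brain (log2 fold change -3.52 ± 0.28 (SE), adjusted p = 1.1e-06). Ugt2b5 and Cyp2d10, an enzyme of glucuronidation and a P450, were among the 5 liver genes with the smallest p-values, at 401 and 408 CPM in liver and 0.104 CPM or less in every brain. So was Kynu, kynureninase of tryptophan breakdown, at 181, 179 and 150.3 CPM in liver and 4 counts in all over the brains (log2 fold change 11.35 ± 0.60 (SE), adjusted p = 1.6e-09).

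Cps1, which feeds ammonia into the urea cycle, was at 5005, 4153 and 6194 CPM in liver and 1.25, 1.94 and 0.853 CPM in brain (log2 fold change 11.89 ± 0.37 (SE), adjusted p = 5.1e-09). The later enzymes Ass1 and Asl differed less, with log2 fold changes of 7.79 ± 0.26 and 5.95 ± 0.24, with 9.52 ± 0.518 CPM and 6.804 ± 0.473 CPM in brain (SD, n = 3). In gluconeogenesis, Pck1 and G6pc were at 1952 ± 149.6 CPM and 574 ± 229.9 CPM in liver and below 1 CPM in brain. Genes of lipid synthesis had a higher level in brain than these: Scd1, which desaturates fatty acids, was at 27510, 18120 and 10570 CPM in liver and 118, 179 and 128 CPM in brain (log2 fold change 6.96 ± 0.35 (SE), adjusted p = 1.6e-07), and Fasn and Acly had log2 fold changes of 4.45 ± 0.35 and 3.35 ± 0.26. Scd1 was lowest in the liver of mouse E and highest in that of mouse B, a range wider than that of Alb. Fabp1 was at 3225, 3308 and 1424 CPM in liver and 0.209, 0.807 and 0.325 CPM in brain (log2 fold change 12.47 ± 0.42 (SE), adjusted p = 2.4e-09).

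**Figure D2:**
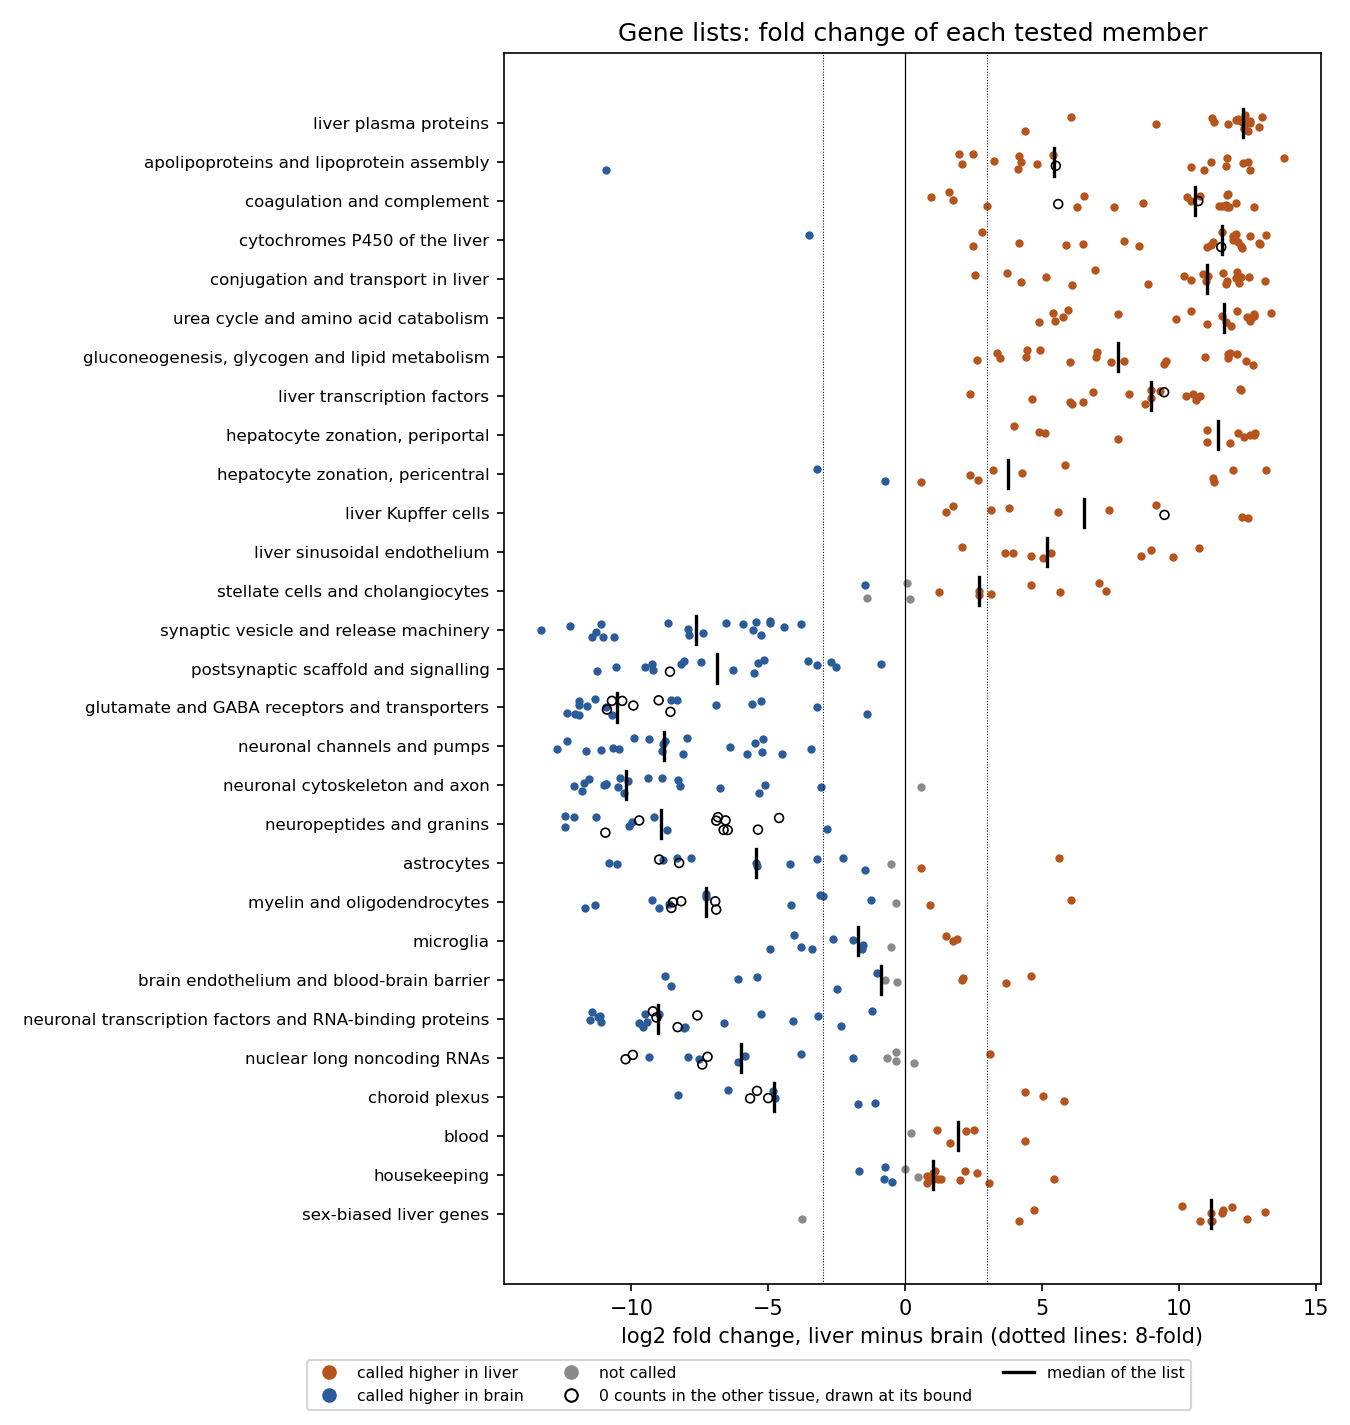
Log2 fold change (liver minus brain, horizontal axis) of each tested member of 29 gene lists, coloured by call, with the median of the list as a bar and genes without a count in the other tissue drawn as open circles at the bound that 3 counts allow. The lists of hepatocyte genes lie to the right with medians up to 12.33, and the lists of neuronal genes to the left with medians down to -10.53.

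All 18 listed transcription factors of hepatocytes were higher in liver. Hnf4a, a nuclear receptor that sets hepatocyte identity, was at 692, 667 and 662 CPM in liver and 0.0522, 0.202 and 0.122 CPM in brain (log2 fold change 12.26 ± 0.52 (SE), adjusted p = 1.6e-09). Foxa3 had no brain count and was at least 706-fold higher in liver at 34.95, 37.2 and 20.8 CPM. Prox1, which also acts in neural progenitors and the hippocampus, had the smallest contrast of the list, with 191 ± 32.9 CPM in liver and 36.6 ± 6.51 CPM in brain (log2 fold change 2.39 ± 0.21 (SE), adjusted p = 3.0e-06).

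Genes of both ends of the liver lobule were present. All 12 periportal genes were higher in liver, and 10 of 12 tested pericentral genes. Glul, glutamine synthetase, marks pericentral hepatocytes and also astrocytes, and was at 674, 952 and 806 CPM in liver and 466, 606 and 565 CPM in brain (log2 fold change 0.57 ± 0.21 (SE), adjusted p = 0.031). Its call was lost with the size factors of DESeq2 in the same fit (0.49, adjusted p = 0.0676), without the filter (0.51, adjusted p = 0.0771), without mouse B, D or E (adjusted p = 0.1, 0.105 and 0.0872) and with library totals (-0.28, adjusted p = 0.257), which turned its direction. Slc1a2, the glutamate transporter of astrocytes and pericentral hepatocytes, was at 172, 217 and 184 CPM in liver and 1474, 1697 and 2178 CPM in brain (log2 fold change -3.21 ± 0.23 (SE), adjusted p = 7.3e-07), and Axin2, a target of Wnt signalling, was the other gene called for brain (log2 fold change -0.72 ± 0.24 (SE), adjusted p = 0.023), a call that was lost without mouse D (-0.34, adjusted p = 0.235).

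The other cells of the liver were visible at lower levels. All 10 Kupffer cell markers and all 10 markers of sinusoidal endothelium were higher in liver, with summed levels of 412 to 653 CPM and 570.5 to 752 CPM in liver against 37.7 to 50.5 CPM and 16.4 to 24.9 CPM in brain. Clec4f, a lectin of Kupffer cells, was at 99.1, 153 and 119 CPM in liver with 1 count over the 3 brains, a ratio of 8358 with a counting interval of 1500 to 330100. Stab2, the hyaluronan scavenger of sinusoidal endothelium, was at 150.5, 150.1 and 216 CPM in liver and 0.522, 0.121 and 0.406 CPM in brain (log2 fold change 8.98 ± 0.37 (SE), adjusted p = 2.4e-09). Csf1r, the receptor that macrophages and microglia share, differed less, with 74.2 ± 10.3 CPM in liver and 26.7 ± 4.18 CPM in brain (log2 fold change 1.48 ± 0.16 (SE), adjusted p = 1.4e-05). Of 12 tested markers of stellate cells and bile ducts, 8 were higher in liver and 1 in brain, beside 32.3% and 40.3% of all genes tested. The latter was Sox9 (log2 fold change -1.47 ± 0.38 (SE), adjusted p = 0.011), which was not called without mouse D (-1.17, adjusted p = 0.138). Reln, Rgs5 and Cftr were not called (adjusted p = 0.46, 0.78 and 0.064), but under library totals Reln (-0.65, adjusted p = 0.0269) and Rgs5 (-0.76, adjusted p = 0.017) were called for brain. The list then had 7 genes higher in liver and 4 in brain, beside 3410 and 10184 of all 17694 genes tested. Cftr, a chloride channel of bile ducts with 19 liver counts in all, was called for brain without mouse D (-2.04, adjusted p = 0.0366), without the pairing by mouse (-1.39, adjusted p = 0.0276), with all 12 libraries (-1.39, adjusted p = 0.0165), with the size factors of DESeq2 in the same fit (-1.47, adjusted p = 0.049) and under library totals (-2.23, adjusted p = 0.00749). Lrat, which stores vitamin A in stellate cells, was at 38.2, 45.2 and 40.8 CPM in liver and 0.157, 0.282 and 0.447 CPM in brain (log2 fold change 7.08 ± 0.35 (SE), adjusted p = 5.6e-09).

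In the brain, the 10 genes with the highest RPKM among 8-fold genes were Bc1, Rny3, Rny1, Sparcl1, Kif5a, Calm3, Gm23767, Nrgn, Eef1a2 and Cpe. Bc1, a short RNA of neurons that is carried into dendrites (chr7:144914470-144914637, plus strand), was at 5.16, 4.96 and 3.66 CPM in liver and 9412, 7846 and 6193 CPM in brain (log2 fold change -10.73 ± 0.29 (SE), adjusted p = 2.4e-09). Rny3 and Rny1, the Y RNAs, were 8-fold higher in brain but spread widely there: Rny3 was at 1043, 524 and 362 CPM in the 3 brains and Rny1 at 292, 145 and 113 CPM, with mouse B highest in both. Without mouse B, Rny3 fell below 8-fold (-2.83, adjusted p = 4.54e-05). Gm23767, a small nucleolar RNA (chr7:59708469-59708562, minus strand), had 1 count over the 3 livers and 48.3, 32.2 and 17.9 CPM in brain, a ratio of 1286 with a counting interval of 231 to 50780. Bc1, Rny3, Rny1 and Gm23767 are 168, 102, 112 and 94 bases long in the annotation, so their RPKM rests on few positions. Kif5a, a motor of axonal transport, was at 2.28, 2.73 and 1.902 CPM in liver and 2603, 2125 and 3127 CPM in brain (log2 fold change -10.14 ± 0.30 (SE), adjusted p = 2.7e-09). The 5 brain genes with the smallest p-values were Unc80, a subunit of the sodium leak channel, Ddn, a postsynaptic protein, Bcas1, of oligodendrocytes, Acsl6, a fatty acyl-CoA ligase, and Nap1l5. Unc80 was at 0.134, 0.0826 and 0.0731 CPM in liver and 433, 447 and 408 CPM in brain (log2 fold change -12.00 ± 0.64 (SE), adjusted p = 1.6e-09).

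Every listed gene of the synapse was higher in brain, in lists chosen with earlier results of these data known. All 20 tested genes of vesicle release and all 18 of the postsynaptic density passed the test, with median log2 fold changes of -7.63 and -6.88. Rims1 and Bsn, scaffolds of the active zone, were at 631 ± 7.83 CPM and 384 ± 171 CPM in brain and 0.242 ± 0.0675 CPM and 0.116 ± 0.104 CPM in liver. Cplx1, which clamps vesicle fusion, was at 232, 459.7 and 288 CPM in brain with 1 count over the livers, a ratio of 13620 with a counting interval of 2445 to 538100. Camk2a, the kinase of synaptic plasticity, was at 0.402, 0.3303 and 0.146 CPM in liver and 502, 738 and 1079 CPM in brain (log2 fold change -11.26 ± 0.52 (SE), adjusted p = 2.4e-09), lowest in the brain of mouse B. Nrgn, a calmodulin-binding protein of dendrites, was at 289, 256 and 555 CPM in brain and was highest in mouse E. Pclo, a large active zone protein, was at 17.5, 16.1 and 30.6 CPM in liver and 552, 677 and 648 CPM in brain (log2 fold change -4.92 ± 0.23 (SE), adjusted p = 3.6e-08), and Shank2, a scaffold also found outside the brain, had the smallest contrast (log2 fold change -0.87 ± 0.25 (SE), adjusted p = 0.01), a call that was lost without mouse D (-0.51, adjusted p = 0.0924).

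Receptors and transporters for glutamate and GABA showed the lowest median of all lists, -10.53 with genes of no liver count at their bound, and all 22 passed the test. Grin1, the obligate NMDA receptor subunit, was at 152, 240.5 and 235 CPM in brain with 3 counts over the livers, a ratio of 2903 with a counting interval of 993 to 14080. Gad1 and Gad2, which make GABA, had no count in any liver and were at least 1904-fold and at least 1294-fold higher in brain, at 113, 156 and 145 and 105, 85.4 and 97.7 CPM. Slc17a7, the vesicular glutamate transporter of forebrain neurons, was at 203, 235 and 339 CPM in brain. Slc1a3, a glutamate transporter of astrocytes, was at 0.603, 1.16 and 1.61 CPM in liver and 295, 399 and 367 CPM in brain (log2 fold change -8.33 ± 0.29 (SE), adjusted p = 1.9e-09). The smallest contrast was that of Gabbr2, a GABA-B receptor subunit, with 73.04 ± 32 CPM in liver and 184 ± 42.5 CPM in brain (log2 fold change -1.40 ± 0.29 (SE), adjusted p = 0.0022).

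All 20 listed channels and pumps were higher in brain. Scn2a, a sodium channel of axons, was at 0.134, 0.248 and 0.366 CPM in liver and 433, 334 and 449 CPM in brain (log2 fold change -10.66 ± 0.46 (SE), adjusted p = 1.6e-09). Slc12a5, the chloride exporter KCC2, had 242 ± 68.9 CPM in brain and 2.76 ± 0.207 CPM in liver. Of 20 genes of the neuronal cytoskeleton 19 were higher in brain, among them the neurofilaments Nefl (log2 fold change -11.01 ± 0.53 (SE), adjusted p = 2.3e-09), Nefm and Nefh and the microtubule proteins Map2 and Tubb3. Tubb2a was at 186, 71.8 and 106 CPM in liver and 61.4, 75.2 and 87.8 CPM in brain and was not called (adjusted p = 0.102). It was called for liver without mouse D (0.94, adjusted p = 0.0174), without mouse E (0.77, adjusted p = 0.00497) and without the filter (0.54, adjusted p = 0.0238), and its value was -0.25 under library totals.

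All 18 tested neuropeptides and granins were higher in brain, where 20 were listed and Oxt and Gal had too few counts. Chga, a granin of dense core vesicles, had no count in liver and 107, 190.3 and 132 CPM in brain, at least 1981-fold higher. Sst, somatostatin, had no liver count and 53.01, 54.9 and 76.3 CPM in brain, at least 842-fold higher. Cpe, the enzyme that trims peptide precursors, was at 0.937, 0.413 and 1.83 CPM in liver and 489, 615 and 696 CPM in brain (log2 fold change -9.17 ± 0.35 (SE), adjusted p = 4.3e-09). Penk, proenkephalin, was at 141, 97.4 and 159 CPM in brain. Hormones of the pituitary were at or near 0: of 10 listed genes only Pomc had enough counts to be tested, with 1.77, 2.42 and 0.569 CPM in the brains, and its call for brain was lost without mouse D (-2.11, adjusted p = 0.0579).

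Transcription factors and RNA-binding proteins of neurons, 22 of 22, were higher in brain. Neurod1 and Neurod2, factors of neuronal differentiation, were at 67.5, 89.9 and 59.2 and 36.3, 50.1 and 43.7 CPM in brain with 1 and 2 counts over the livers. Zic1 and Pax6, which mark cerebellar granule neurons among others, were at 160.1, 208 and 125 and 41.8, 47.2 and 31.6 CPM. Rbfox3, which encodes the neuronal antigen NeuN, was at 0.335, 0.743 and 0.585 CPM in liver and 115, 164 and 156 CPM in brain (log2 fold change -8.04 ± 0.30 (SE), adjusted p = 1.6e-09). Srrm4, the splicing factor of neuronal microexons, had the smallest contrast (log2 fold change -1.20 ± 0.21 (SE), adjusted p = 4.2e-04), at 10.5, 12.9 and 15.6 CPM in liver and 23.3, 40.5 and 27.1 CPM in brain.

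Glial markers were split. Of 16 astrocyte genes, 13 were higher in brain and 2, Aldh1l1 and Glul, in liver. Gfap, the intermediate filament of astrocytes, was at 0.469, 0.826 and 1.24 CPM in liver and 161, 257 and 169 CPM in brain (log2 fold change -7.84 ± 0.32 (SE), adjusted p = 3.2e-09), whereas Aldh1l1, an enzyme of folate metabolism used as an astrocyte marker, was at 1682, 1475 and 2053 CPM in liver and 27.4, 45.01 and 34.9 CPM in brain (log2 fold change 5.62 ± 0.25 (SE), adjusted p = 3.5e-08). Of 19 myelin and oligodendrocyte genes, 16 were higher in brain and 2, Trf and Myrf, in liver. Mog, of the outer myelin sheath, and Sox10, the transcription factor of the lineage, had no liver count and were at least 357-fold and at least 290.4-fold higher in brain. Myrf, the myelin regulatory factor, was higher in liver (log2 fold change 0.90 ± 0.27 (SE), adjusted p = 0.016), a call that was lost without mouse B (0.44, adjusted p = 0.143), under library totals (0.06, adjusted p = 0.848), by DESeq2 (0.80, adjusted p = 0.065) and with all 12 libraries (0.80, adjusted p = 0.0652).

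Microglia, endothelium and choroid plexus gave mixed lists. Of 12 microglia genes 8 were higher in brain and 3, Csf1r, C1qa and Sall1, in liver. Tmem119, which is particular to microglia among macrophages, was at 0.402, 0 and 0.439 CPM in liver and 3.91, 5.28 and 5.16 CPM in brain (log2 fold change -4.05 ± 0.68 (SE), adjusted p = 1.6e-04), and Cx3cr1, the fractalkine receptor, at 1.26 ± 0.788 CPM in liver and 12.8 ± 1.01 CPM in brain (log2 fold change -3.40 ± 0.38 (SE), adjusted p = 1.2e-05). Of 12 genes of brain endothelium and its barrier, 6 were higher in brain and 4, Mfsd2a, Slco1a4, Pecam1 and Kdr, in liver, near the 40.3% and 32.3% of all genes tested. Under library totals Sall1 (1.05, adjusted p = 0.0556) and Slco1a4 (1.25, adjusted p = 0.0555) were not called, and Slco1a4 was not called without the filter either (2.05, adjusted p = 0.105). Slco1c1, the thyroxine transporter of the barrier, had 1 count over the livers and 12.9, 13.8 and 14.5 CPM in brain. Of 12 choroid plexus genes 9 were higher in brain, among them Otx2, with no liver count and 3.18, 5.08 and 2.804 CPM in brain, and Ttr, Aqp1 and Prlr were higher in liver. Blood gave 5 genes of 6 tested that were higher in liver and none higher in brain, beside 32.3% and 40.3% of all genes tested. Under library totals, and without mouse B, 4 of them were called for liver. Hbb-bs, adult beta globin, was at 51.95, 45.2 and 70.4 CPM in liver and 15.8, 23.1 and 14.5 CPM in brain (log2 fold change 1.66 ± 0.24 (SE), adjusted p = 1.2e-04). Of 12 pancreas genes, 11 were not tested for want of counts and Cela1 was higher in liver, and digestive enzymes such as Prss2 and Cpa1 had no count in any of the 6 libraries. Of 12 genes of fat and muscle 4 were tested: Cidec and Fabp4, of fat cells, were called for liver at means of 3.596 and 5.97 CPM, and Acta1 and Myh4, of skeletal muscle, for brain at 1.65 and 0.734 CPM. The part of blood, fat or muscle in other contrasts was not tested.

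Of 16 long noncoding RNAs of the nucleus 11 were called higher in brain and 1 in liver, beside 40.3% and 32.3% of all genes tested, and 15 were called for brain under library totals. Meg3, an imprinted RNA (chr12:109541001-109571726, plus strand), was at 0.937, 2.64 and 2.49 CPM in liver and 1625, 998 and 1354 CPM in brain (log2 fold change -9.37 ± 0.38 (SE), adjusted p = 2.0e-08). Miat and Mir124a-1hg, the latter the host RNA of a neuronal microRNA, had no count in any liver and were at least 989-fold and at least 1187-fold higher in brain, at 85.3, 43.8 and 92.4 and 93.3, 93.1 and 77.2 CPM. Neat1, which builds nuclear paraspeckles, was the exception at 256, 195 and 331 CPM in liver and 32.9, 30.5 and 25.6 CPM in brain (log2 fold change 3.11 ± 0.22 (SE), adjusted p = 5.4e-07). Its neighbour Malat1 was among the most abundant RNAs of both organs, at 5338, 4980 and 11620 CPM in liver and 13570, 8826 and 10390 CPM in brain, overlapped between them and was not called (adjusted p = 0.11), but was called for brain by DESeq2 (-0.78, adjusted p = 0.0396) and under library totals (-1.52, adjusted p = 0.00446). LincRNA genes as a class took 0.5298, 0.539 and 1.28% of counts in the 3 livers and 3.802, 3.07 and 3.07% in the 3 brains.

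Related genes were also compared within each organ. The 24 pairs were chosen to hold a form known from liver and one known from brain, so their counts describe these pairs and not gene families at large. Of them 15 had the liver form called for liver and the brain form called for brain. By mean RPKM the order of both forms differed between the organs in 22 pairs, and in 20 when the values were not divided by length. Pyruvate kinase was Pklr in liver (112 RPKM against 3.91 for Pkm) and Pkm in brain (90.6 against 0.0387). The glucose transporter Slc2a2 was at 69.01 RPKM in liver beside 0.0951 RPKM for Slc2a3, and brain held 0.0171 and 7.92 RPKM of them.

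**Figure D3:**
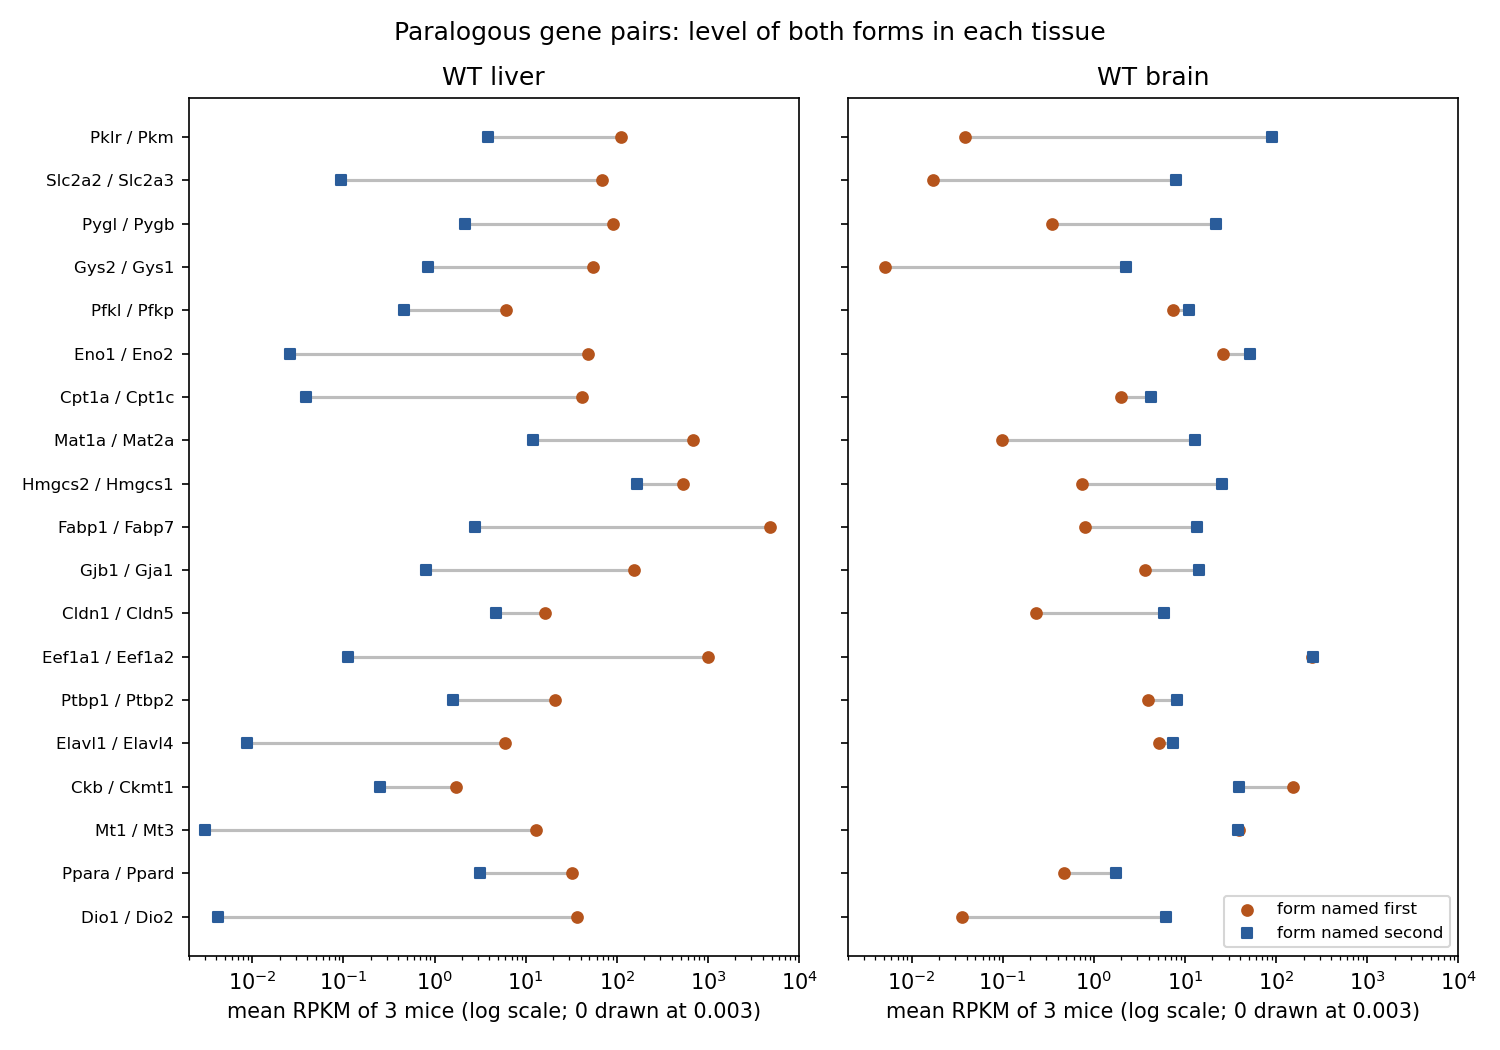
Mean RPKM (log scale, 3 mice) of both members of 19 of the 24 pairs of related genes in WT liver (left) and WT brain (right), with the form known from liver as a circle and that known from brain as a square. The circle lies to the right of the square in all 19 pairs in liver and in 2 pairs, Ckb with Ckmt1 and Mt1 with Mt3, in brain.

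The same held for the glycogen phosphorylases Pygl and Pygb, the carnitine palmitoyltransferases Cpt1a and Cpt1c and the deiodinases Dio1 and Dio2. In other pairs one form was common to both organs and the second was added in brain. Elongation factor 1 alpha was almost entirely Eef1a1 in liver (1006 RPKM against 0.113 for Eef1a2), whereas brain held both, at 246 and 251 RPKM, with Eef1a1 the higher when not divided by length. Eef1a2 was at 0.268, 0 and 0.439 CPM in liver and 368, 667 and 537 CPM in brain (log2 fold change -10.99 ± 0.63 (SE), adjusted p = 7.8e-09). Eno1 and Eno2 showed the same pattern: Eno2 was at 0.0257 RPKM in liver and 51.2 RPKM in brain, beside 47.7 and 26.1 RPKM of Eno1, whose call for liver was lost without mouse B (0.45, adjusted p = 0.0885) and under library totals (0.01, adjusted p = 0.979). Of the 2 pairs without a change of order, Ckb, the brain creatine kinase, was above Ckmt1 in both organs and higher in brain (log2 fold change -6.49 ± 0.21 (SE), adjusted p = 2.8e-09). Mt1, a metallothionein, was at 2.88, 3.63 and 41.5 CPM in the livers, high only in mouse E, and at 38.2, 56.1 and 52.2 CPM in the brains (log2 fold change -2.57 ± 0.63 (SE), adjusted p = 0.014). Its call was lost without mouse B (-1.98, adjusted p = 0.0754), without mouse D (-1.83, adjusted p = 0.419), without the filter (-2.63, adjusted p = 0.308), without the pairing by mouse (-1.61, adjusted p = 0.263) and with all 12 libraries (-1.62, adjusted p = 0.342). Mt3 had no liver count and was at least 547-fold higher in brain.

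Some genes differed little. In 405 protein-coding genes the 95% interval of the log2 fold change lay within 0.5 of 0. The 5 with the highest RPKM among them were Rps23, Rpl23a and Rps15, proteins of the ribosome, Ptma, prothymosin alpha, and Cox8a, a subunit of cytochrome c oxidase. Rps23 was at 262, 271 and 209 CPM in liver and 268, 245 and 207 CPM in brain, with a log2 fold change of 0.04 and an interval of -0.36 to 0.45. Under library totals all 5 were called higher in brain, by -0.78 to -0.92 on the log2 scale, so equality held relative to the scaling and not by itself. Of 18 common reference genes 12 were higher in liver, 4 in brain and 2 were not called, with a median of 1.01, beside 32.3% and 40.3% of all genes tested. Under library totals 5 of the 18 were called for liver and 5 for brain, with a median of 0.17. Of all 17694 genes tested, 3410 and 10184 were then called. Ppia was the closest to 0 (-0.0043, adjusted p = 0.99), but under library totals it was called for brain (-0.84, adjusted p = 0.0035). Gapdh was higher in liver (log2 fold change 0.81 ± 0.23 (SE), adjusted p = 0.0093) but not without mouse B (0.46, adjusted p = 0.104) and at -0.03 under library totals, and B2m, the light chain of MHC class I, was higher in liver in every setting, at 786, 839 and 724 CPM against 17.1, 22.1 and 15.03 CPM in brain (log2 fold change 5.45 ± 0.20 (SE), adjusted p = 7.7e-09). Mettl5 itself (chr2:69871198-69885615, minus strand), which overlaps Ssb, was at 19.4, 10.5 and 10.8 CPM in liver and 7.36, 4.72 and 4.06 CPM in brain (log2 fold change 1.32 ± 0.22 (SE), adjusted p = 3.3e-04), with mouse B highest in both organs. Under library totals Mettl5 was not called (0.48, adjusted p = 0.0966).

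The liver put its counts into far fewer genes than the brain. The 10 highest genes took 36.9, 31.6 and 34.5% of the counts in the livers of mice B, D and E and 28.4, 16.6 and 20.7% in their brains, and 50% of the counts lay in 62, 82 and 91 genes in liver and 487, 807 and 679 genes in brain. The tissues did not overlap in either measure, and with 3 pairs an exact paired permutation test (two-sided) gave p = 0.25 for both, the smallest it can give. The mitochondrial rRNA genes mt-Rnr1 and mt-Rnr2 took 16.5, 10.7 and 16.9% of liver and 17.7, 7.63 and 11.7% of brain counts. With mitochondrial and rRNA-like genes left out, 50% of the counts lay in 193, 178 and 296 genes in liver and 1051, 1063 and 1040 genes in brain. The 1883 8-fold liver genes held 40.95, 43.8 and 38.5% of liver counts, and the 3872 8-fold brain genes held 23.1, 27.4 and 26.9% of brain counts, so the larger number of brain genes held the smaller share. At 10 counts or more in all 3 libraries, 13066 genes were detected in liver, 16167 in brain and 11671 in both, which is 89.32% of the liver genes and 72.19% of the brain genes. After thinning to the smallest library of 15078611 counts, these numbers were 12714, 15873 and 11386. Thinning equalised the library totals and not the sizes scaled by TMM, which were smaller in every liver than in every brain.

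**Figure D4:**
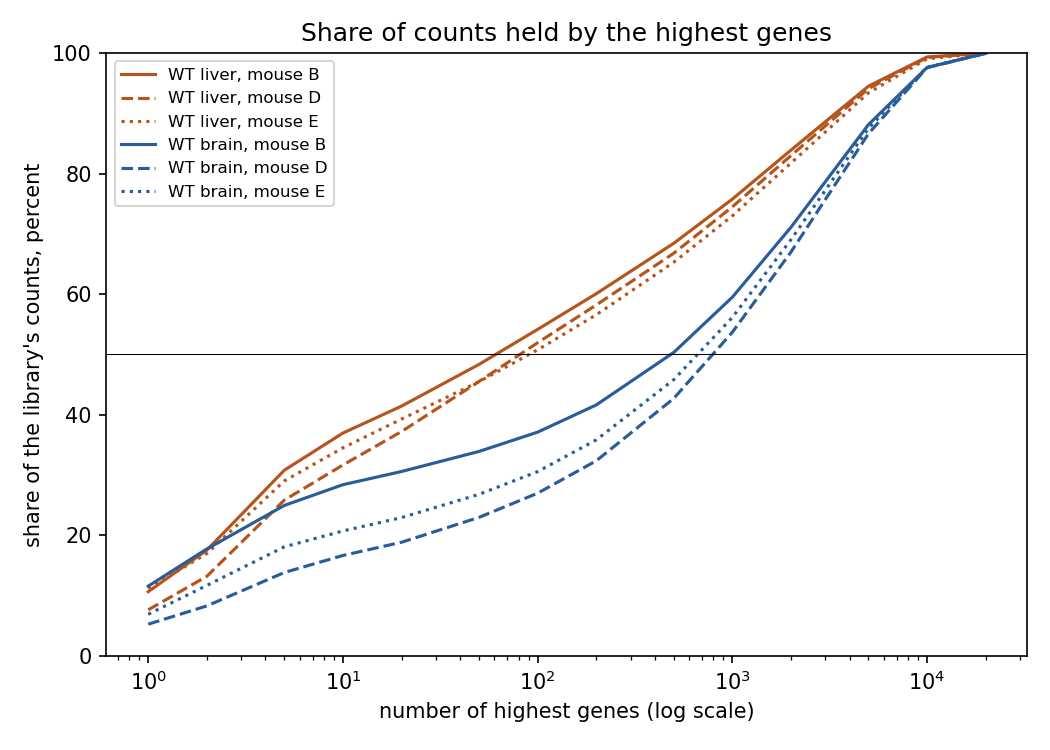
Share of a library's counts (percent, vertical axis) held by its highest genes, against the number of genes on a log scale, for the 3 liver and 3 brain libraries. Lines of liver cross 50% at 62, 82 and 91 genes in mice B, D and E and lines of brain at 487, 807 and 679 genes.

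Brain genes were longer. The median genomic span of protein-coding genes was 35.3 kb for genes called higher in brain and 37.54 kb for those 8-fold higher, against 21.73 kb and 19.71 kb for liver and 25.77 kb for all protein-coding genes tested. Of 536 protein-coding genes that span 300 kb or more, 79.1% were called higher in brain and 11.19% in liver, with a median log2 fold change of -4.13. Of 3320 genes under 10 kb, 33.43% were called for brain and 39.46% for liver. Counts came from exons only, and genes are not independent replicates, so these shares carry no test. On the X chromosome 53.26% of 537 genes tested were called for brain and 23.09% for liver, beside 40.3% and 32.3% over all chromosomes. Genes without any count in the other organ were also unequal: 203 of the 1883 liver genes and 1213 of the 3872 brain genes had none, and 203 and 1202 of these remained at least 8-fold at their bound.

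Large differences among the 3 mice were more frequent in liver than in brain. Among genes with a mean of 20 CPM or more, 93 of 6178 liver genes had a range of 2 or more on the log2 scale over the 3 mice, against 5 of 6282 brain genes, while the median range was similar at 0.323 and 0.353. Xist, which silences an X chromosome, was at 0.0669, 0.165 and 1392 CPM in the livers of mice B, D and E and 0.104, 0 and 413 CPM in their brains, and the Y-linked gene Ddx3y was at 95.7, 107 and 0.293 CPM and 71.9, 48.9 and 0.163 CPM. Mouse E therefore stood apart from mice B and D in both organs in these genes, and the labels give no sex. Of the 30 liver genes with the largest range, 16 were highest in mouse E and under 10 CPM in both other mice, and the remaining 14 were lowest in mouse E. Cyp3a41a and Cyp2a4, P450 enzymes, were at 0, 0 and 602 CPM and 0.803, 0.248 and 554 CPM, and A1bg, a plasma protein, at 0, 0 and 516 CPM. The 8 urinary protein genes among the 30, uncertain one by one because reads of near-identical copies can be split between them, were all lowest in mouse E, with Mup7 at 1633, 7556 and 16.8 CPM and Mup20 at 1933, 2944 and 17.6 CPM. Hsd3b5, a steroid dehydrogenase, and Elovl3, a fatty acid elongase, were at 85.4, 236 and 1.46 CPM and 458, 225 and 3.66 CPM. Cyp3a41a, Cyp2a4 and A1bg had counts in 1 liver only or nearly so and were not tested between the tissues. Of 23 genes listed as sex-biased in liver 13 were tested, and 12 of these were higher in liver than in brain and none in brain, beside 32.3% and 40.3% of all genes tested. The count for liver was 9 without mouse D and 10 without the filter. By DESeq2, and without mouse E, 1 of the 13 was called for brain. Of the Xist and Y-linked genes 4 were tested, 2 were called for liver, Ddx3y and Eif2s3y, and 2, Uty and Kdm5d, were not called. Under library totals Uty (-0.76, adjusted p = 0.0348) and Kdm5d (-0.9981, adjusted p = 0.00679) were called for brain. Both calls for liver were lost without the pairing by mouse (adjusted p = 0.774 and 0.713), with all 12 libraries (adjusted p = 0.778 and 0.704) and under library totals (-0.11, adjusted p = 0.669 and 0.02, adjusted p = 0.955), that of Ddx3y also by DESeq2 (0.70, adjusted p = 0.0682) and without mouse D (0.47, adjusted p = 0.188) and that of Eif2s3y without mouse B (0.93, adjusted p = 0.0894). The call of Mup20 for liver was lost without mouse D (10.82, adjusted p = 0.0865). The 5 brain genes with the largest range were Xist, Ddx3y, Uty, Kdm5d and mt-Tv, the first 4 of them on the sex chromosomes, and mt-Tv, a mitochondrial tRNA, was at 317, 106 and 53.6 CPM.

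**Figure D5:**
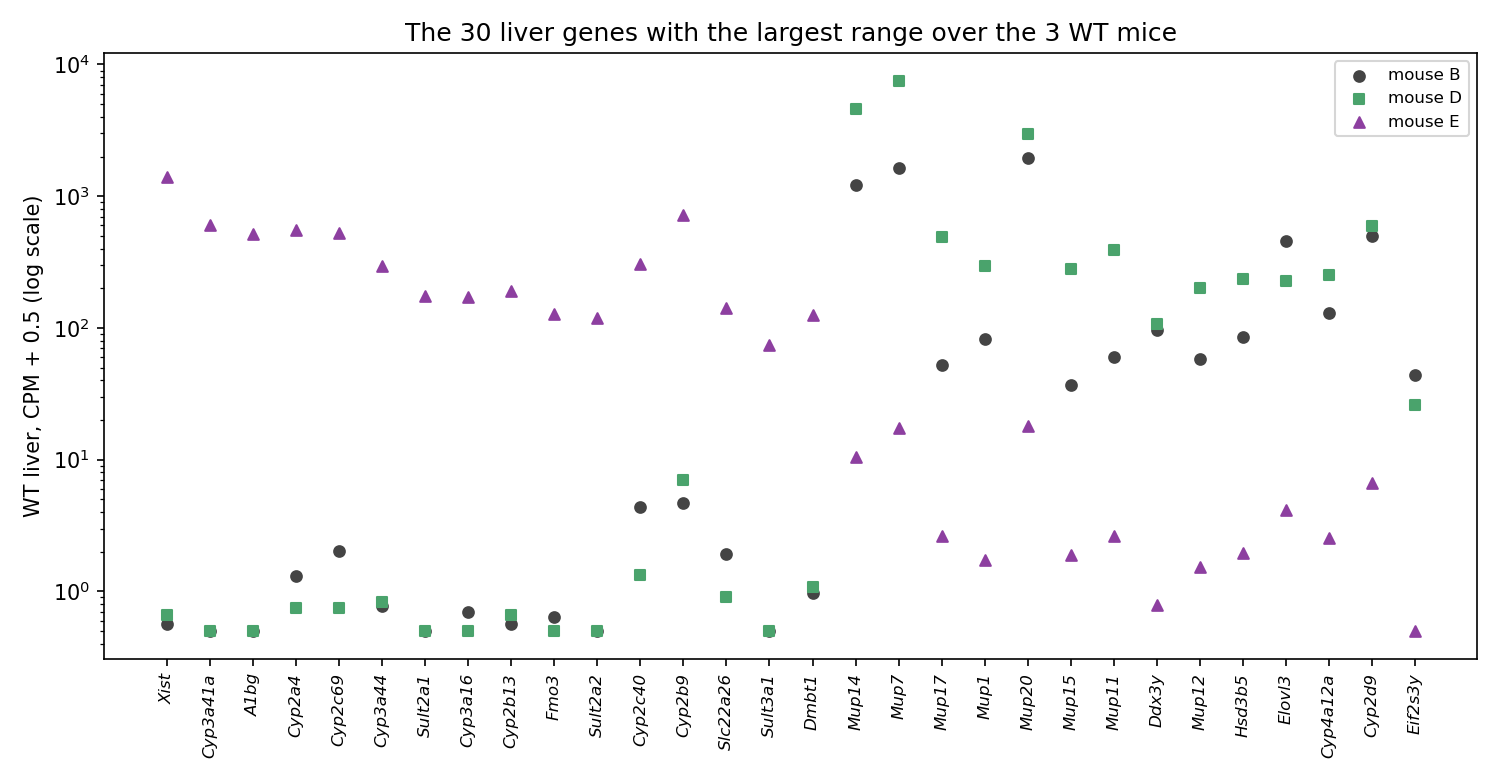
Level in WT liver (CPM + 0.5, log scale) of the 30 genes with the largest range over the 3 mice, ordered by mouse, with mouse B as circles, D as squares and E as triangles. In the first 16 genes mouse E is highest and in the last 14 it is lowest, as for Cyp3a41a at 0, 0 and 602 CPM and Mup7 at 1633, 7556 and 16.8 CPM in mice B, D and E.

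The contrast of the organs was also seen in the 3 KO mice, which share no sample with the WT mice. Of the 1883 8-fold liver genes 1788 were tested in KO mice, 1771 were called for liver and 1653 were again 8-fold, which is 87.79% of the WT list and 87.93% of the KO list of 1880 genes. Of the 3872 8-fold brain genes 3591 were tested, 3582 were called for brain and 3380 were 8-fold, 87.29% of the WT list and 87.91% of the KO list. The sign differed in 4 genes, which are named here because they were found so: Filip1l, Zfp982 and Zfp992 of the liver list, with log2 fold changes of -0.61, -0.74 and -0.43 in KO mice, and Gm24563 of the brain list, with 0.17. None of the 4 was called in KO mice.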

How the data were processed

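Per the labels, total RNA of Trizol lysates was made into stranded libraries (SMARTer Stranded Total RNA-Seq v2) and sequenced single-end. The authors trimmed reads with Trimmomatic, aligned them with STAR 2.7.3a to mm10 and counted them over exons with featureCounts in reverse-stranded mode. The values deposited are raw counts per gene. Start and end equalled those of GENCODE vM21 for 54435 genes.

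The 6 WT libraries were fitted in edgeR 4.0.16 (R 4.3.3) with TMM, filterByExpr, a robust quasi-likelihood F test and Benjamini-Hochberg adjustment over 17694 genes. Liver and brain of a letter come from the same mouse, so mouse was a block. Deviations of same-lettered liver and brain libraries correlated at -0.037, 0.0879 and 0.0942. A gene with 0 counts in a tissue was set at 3 counts over its 3 libraries, and with 1 to 3 counts its ratio is given with a 95% Poisson interval, which covers counting error only. SE values are Wald errors of the fit. P-values rest on how far the liver-minus-brain difference varied among the 3 mice, with the variance of each gene moderated across genes. Each mouse gave 1 library per organ.

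Genes named are the markers, per direction the 10 with the highest RPKM among 8-fold genes without overlap and the 5 with the smallest p, members of 33 lists and 24 pairs, Mettl5, the 5 highest genes with an interval within 0.5 of 0 and the 5 with the largest range over mice per tissue. Lists, pairs and members were chosen with earlier results of these data known. The fit was also run on simulated counts in which few genes changed and rises and falls were balanced. That run does not test the scaling between the organs. Alternatives were other scalings, DESeq2 1.42.0, no filter, no block, all 12 libraries, each mouse left out, a fold of 2 as the null and an adjusted p under 0.01. Values of some genes, and 5 of the pairs, are not reported here.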

Additional observations from a re-analysis of the deposited data

How the results depend on the processing

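The numbers of called and 8-fold genes were within 1.5 times of the reported ones in every alternative except that 3410 genes were higher in liver with library totals and 3592 with glmTreat against a fold of 2. Without the block by mouse 13061 genes were called in place of 12838, and without mouse B, D or E 11758, 12023 and 12518. The median log2 fold change was -0.2454 with the size factors of DESeq2, -0.2653 with DESeq2, -0.4453 without the filter and -1.006 with library totals. Of 161 tested genes named in the text, 129 kept their call and direction in every alternative. With the size factors of DESeq2 in the edgeR fit, the sign turned for Rps23 (-0.0351), Rpl23a (-0.0455), Cox8a (-0.0441) and Rps15 (-0.0156). With library totals, the sign turned for Rps23 (-0.797), Rpl23a (-0.8075), Cox8a (-0.8057), Rps15 (-0.7775), Ddx3y (-0.1097), Uty (-0.7568), Glul (-0.2753), Reln (-0.652), Rgs5 (-0.7564), Tubb2a (-0.2456) and Gapdh (-0.0292). With DESeq2, the sign turned for Rps23 (-0.0591), Rpl23a (-0.0695), Cox8a (-0.0681), Rps15 (-0.0396) and Rgs5 (-0.0216). Without the filter, the sign turned for Rps23 (-0.0109), Rpl23a (-0.0213) and Cox8a (-0.0199). Without the block by mouse, the sign turned for Kdm5d (0.0088) and Ppia (0.0056). With all 12 libraries and no block, the sign turned for Kdm5d (0.0004). With 1 mouse left out, values that changed sign ran over these ranges: Rpl23a -0.0114 to 0.0561, Ptma -0.1645 to 0.0117, Cox8a -0.1913 to 0.1383, Rps15 -0.0091 to 0.1401, Uty -0.3426 to 0.5089, Kdm5d -0.5074 to 0.0325, Reln -0.0195 to 0.4997, Rgs5 -0.2627 to 0.3652 and Ppia -0.1935 to 0.1102. The cause was not tested. With mitochondrial and rRNA-like genes left out, the 10 highest genes took a mean of 24.22% of liver and 10.77% of brain counts, the 100 highest 42.17% and 20.38%, and 50% lay in 222.3 and 1051 genes. Without Gm23935 as well, an alternative added after the data were seen, these means were 18.1% and 7.209%, 37.15% and 17.07%, and 319.7 and 1164 genes. The number of mice and the depth limit genes of a few counts, whose ratio carries a wide counting interval.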

Other observations

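Gene families gathered by symbol, chosen after the data were seen, gave counts from the same fit, in which 32.3% of all genes tested were higher in liver and 40.3% in brain. Of 61 tested cytochromes P450, 53 were higher in liver and 6 in brain, and all 13 tested UDP glucuronosyltransferases and all 13 tested urinary protein genes were higher in liver by 8-fold or more. All 15 tested ionotropic glutamate receptor genes, all 14 GABA-A receptor subunits and all 15 synaptotagmins were higher in brain. Of 75 tested potassium channel genes 68 were higher in brain and 5 in liver, and of 66 protocadherins, adhesion molecules that diversify neurons, 63 and 2. Of 54 tested Rab GTPases, which direct vesicle traffic, 27 were higher in brain and 14 in liver, which is near these shares, and of 31 kinesins 19 were higher in brain and 2 in liver. Of 17 peroxisome biogenesis factors 14 were higher in liver (median 1.63 on the log2 scale), and of 17 subunits of the vacuolar proton pump 12 were higher in brain (median -0.78). Under library totals these medians were 0.79 and -1.62.

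Of 78 tested cytosolic ribosomal proteins 46 were higher in liver and 1 in brain (median 0.65 on the log2 scale), and the medians of mitochondrial ribosomal proteins, NADH dehydrogenase subunits and proteasome subunits were 0.74, 0.65 and 0.81. Under library totals these 4 medians were -0.19, -0.10, -0.19 and -0.029, so their direction depended on the scaling. Of 8 tested proteins encoded by the mitochondrial genome 7 were higher in liver and 1 was not called, with a median of 1.39, and 0.55 under library totals.

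Enzymes that modify RNA, again chosen after the data were seen, had low levels in both organs. Of 13 genes 8 were higher in liver, 3 in brain and 2 were not called, Zcchc4, the 28S rRNA methyltransferase, and Mettl3, beside 32.3% and 40.3% of all genes tested. Under library totals none of the 8 was called by edgeR, with adjusted p from 0.0838 to 0.859, and 4 of them, Emg1, Nat10, Nop2 and Nsun5, turned negative, while Zcchc4 (-0.99, adjusted p = 0.00593) and Mettl3 (-0.89, adjusted p = 0.00688) were called for brain. Trmt112, the partner of METTL5, was at 17.9, 18.4 and 14.8 CPM in liver and 8.97, 10.2 and 6.95 CPM in brain (log2 fold change 0.98 ± 0.20, adjusted p = 0.0011), and 0.14 under library totals (adjusted p = 0.57). Dimt1, which dimethylates adenosines of 18S rRNA, was higher in brain, at 3.95, 4.38 and 3.15 CPM in liver and 14.7, 10.6 and 10.5 CPM in brain (-1.64 ± 0.25, adjusted p = 1.7e-04), as it was under library totals (-2.48). Mettl14, of the mRNA methyltransferase complex, was at 11.6, 8.42 and 11.996 CPM in liver and 22.4, 25.1 and 20.8 CPM in brain (-1.10 ± 0.21, adjusted p = 8.4e-04).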
